A study of Mus musculus with 38 samples.

Results

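The H2- genes of mouse chromosome 17 are the genes of the major histocompatibility complex (MHC). They were taken as every gene on that chromosome whose symbol starts with H2- in the GENCODE annotation vM1 of the mm9 genome, which gave 42 of the 37273 genes on chromosomes 1 to 19, X and Y. The 42 entries carry 41 symbols, because H2-Q2 is listed under 2 gene identifiers, and 36 of them are protein-coding. By their names, 30 are class I genes, 10 are class II genes and 2 (H2-Ke2 and H2-Ke6) are genes of the cluster that encode no antigen-presenting molecule. Each gene was read with 20 kb added on each side. These windows overlap one another and merge into 15 stretches, called the H2 windows here, so neighbouring genes share peaks and are not independent.

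Peak lists of 11 wild-type samples were used. They are a reference map of base-unpairing regions (BURs), made with recombinant SATB1 on purified thymocyte DNA. In addition, there are urea ChIP-seq lists for SATB1 in thymocytes, brain and skin with 2 replicates each, standard ChIP-seq lists for SATB1 in thymocytes with 2 replicates, and urea ChIP-seq lists for CTCF in thymocytes and skin with 1 list each. In urea ChIP-seq the crosslinked chromatin is purified in urea before the immunoprecipitation, whereas standard ChIP-seq starts from chromatin with its indirectly held proteins. The mice were C57BL/6 and Satb1+/+. Thymocytes were labelled as 13 days old, with 6 weeks in the titles of the CTCF sample and of standard replicate 1. Brain cells came from the cortex, in which, according to the protocol, SATB1 is expressed in neurons alone, and were labelled as 5 weeks for replicate 1 and 6 weeks for replicate 2, while the protocol gives 13 days. Skin cells were primary keratinocytes of the epidermis, labelled as 13 days with 5 days in the protocol. The study's methods give other ages, with thymi at 2 weeks, frontal cortex at 6 to 10 weeks and skin from newborn mice. The study's reporting checklist describes replicates as cells from different animals, while the labels name no animals. The replicates also differ in how they were prepared. The thymocyte urea replicates differ in antibody amount (4 and 2 µl) and the skin replicates in sonication (55 and 60 s). The brain replicates differ in a number of cycles (10 and 12), and their titles do not say cycles of what. Standard replicate 1 used the antibody ab109122 and 15 s of sonication, and replicate 2 the antibody 1583D and 150 s. No expression was measured in these lists, so cell type markers could not be checked.

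MHC class I molecules present peptides from inside the cell to CD8+ T cells, and MHC class II molecules present peptides from taken-up material to CD4+ T cells. H2-K1 and H2-D1 encode the classical class I chains of this strain, and the Q, T and M genes encode non-classical relatives. H2-Aa, H2-Ab1 and H2-Eb1 encode class II chains, the H2-DM genes a chaperone that loads class II with peptide, and H2-Oa and H2-Ob its modulator. Developing thymocytes meet these molecules on other cells when T cells are selected. SATB1 is a nuclear protein that binds BURs, AT-rich DNA that unwinds easily, and CTCF binds a GC-rich sequence and holds chromatin loops.

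Urea SATB1 bound the H2 windows at 9 sites that carry most of what follows. They are the 8 sites with a peak in both skin replicates, and the 1 class II site with a peak in both brain replicates and none in skin. The sequences of 8 of them are printed first, since they show how the sites differ in base composition. Each is 201 bases of the NCBIM37 plus strand (the mm9 assembly) centred on the strongest summit. Capitals mark the letters AATTAA on either strand (TTAATT on the plus strand), a motif chosen after the sequences were seen. Apart from the H2-M10.6, H2-Oa and H2-Q8 sites, which hold the thymocyte peaks of highest mean fold enrichment in the class I and class II parts and the strongest BUR, the sequences were chosen after their values were seen. Distances are from the strongest summit to the nearest H2- gene start.
H2-K1, 4.63 kb upstream, chr17:34141806-34142006: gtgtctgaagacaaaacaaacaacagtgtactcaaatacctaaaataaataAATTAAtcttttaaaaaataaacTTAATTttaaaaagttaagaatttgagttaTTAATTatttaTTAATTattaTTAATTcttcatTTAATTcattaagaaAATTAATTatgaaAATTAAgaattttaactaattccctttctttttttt
H2-Q8, 5.09 kb upstream, chr17:35525884-35526084: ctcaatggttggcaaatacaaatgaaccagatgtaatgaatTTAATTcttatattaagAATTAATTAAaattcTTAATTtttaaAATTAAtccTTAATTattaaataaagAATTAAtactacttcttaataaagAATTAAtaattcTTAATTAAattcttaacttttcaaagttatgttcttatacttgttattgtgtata
H2-Q7, 5.20 kb upstream, chr17:35570805-35571005: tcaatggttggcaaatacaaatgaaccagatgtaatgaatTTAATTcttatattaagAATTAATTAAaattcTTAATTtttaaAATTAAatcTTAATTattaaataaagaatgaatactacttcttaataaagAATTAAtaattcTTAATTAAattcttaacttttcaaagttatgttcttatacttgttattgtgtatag
H2-M9, 4.95 kb upstream, chr17:36784461-36784661: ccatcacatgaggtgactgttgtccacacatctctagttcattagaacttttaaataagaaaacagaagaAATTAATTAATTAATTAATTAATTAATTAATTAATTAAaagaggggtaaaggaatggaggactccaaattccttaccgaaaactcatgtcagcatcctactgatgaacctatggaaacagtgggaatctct
H2-M10.6, 17.3 kb downstream, chr17:36966320-36966520: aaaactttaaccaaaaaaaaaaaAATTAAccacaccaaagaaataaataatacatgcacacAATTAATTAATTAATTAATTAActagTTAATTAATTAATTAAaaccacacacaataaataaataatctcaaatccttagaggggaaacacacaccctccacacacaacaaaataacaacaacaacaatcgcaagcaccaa
H2-Aa, 4.31 kb upstream, chr17:34428983-34429183: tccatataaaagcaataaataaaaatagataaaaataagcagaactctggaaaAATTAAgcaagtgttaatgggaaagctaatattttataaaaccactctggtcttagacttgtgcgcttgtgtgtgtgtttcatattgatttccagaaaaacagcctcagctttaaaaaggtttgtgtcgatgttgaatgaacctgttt
H2-Oa, 9.81 kb downstream, chr17:34238994-34239194: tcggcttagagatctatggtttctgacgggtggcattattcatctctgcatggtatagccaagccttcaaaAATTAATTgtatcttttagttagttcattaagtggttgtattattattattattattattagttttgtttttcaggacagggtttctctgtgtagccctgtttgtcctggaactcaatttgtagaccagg
H2-Ob, 3.58 kb downstream, chr17:34379328-34379528: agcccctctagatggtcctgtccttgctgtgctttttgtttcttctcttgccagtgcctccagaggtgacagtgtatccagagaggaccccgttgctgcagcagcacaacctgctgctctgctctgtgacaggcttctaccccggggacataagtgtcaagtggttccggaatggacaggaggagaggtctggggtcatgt

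The class I sites printed here had 84.1% A or T at H2-K1, 82.6% at both H2-Q8 and H2-Q7, 73.6% at H2-M10.6 and 67.2% at H2-M9. The class I site in an intron of H2-Q4, which is not printed, had 58.2% and no AATTAA. The motif AATTAA occurred 9 times at H2-K1, 11 times at H2-Q8, 10 times at H2-Q7, 17 times at H2-M9 and 16 times at H2-M10.6. The sites at H2-M9 and H2-M10.6 are runs of the unit TTAA repeated, and the palindrome TTAATTAA, which contains AATTAA on both strands, occurred 8 and 7 times there. Of the class II sites, H2-Ob had 44.3% A or T and no AATTAA, H2-Oa 64.2% and 2 occurrences, and H2-Aa 68.2% and 1. The classes thus overlapped in base composition. In 300 bases around the BUR summit, AATTAA was present in 60.6% of the 71 BURs of the H2 windows and in 59.2% of all 232310 BURs on the main chromosomes, so that the motif was as frequent in H2 BURs as elsewhere. The longer TTAATTAA was present in 9 of the 71 (12.7%) and in 7.75% of all. Around the urea SATB1 summits of skin, TTAATTAA was present in 4 of 10 peaks of replicate 1 and 4 of 8 of replicate 2 in the H2 windows, against 24.0% and 24.5% of all skin peaks. These counts are not independent, as all 8 peaks of replicate 2 overlapped peaks of replicate 1 and the H2-Q8 and H2-Q7 sequences are near-copies. TTAATTAA was present at none of the 103 and 60 standard SATB1 peaks and none of the 51 and 51 CTCF peaks of the H2 windows, and at 0.495% to 0.826% of the corresponding peaks of the genome.

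Several class I genes had a BUR at a similar distance upstream of the gene start. A BUR summit between 4 and 6 kb upstream was found for 10 of the 30 class I genes (33.3%), namely H2-K2, H2-K1, the second H2-Q2 entry, H2-Q8, H2-Q7, H2-Bl, H2-M10.4, H2-M9, H2-M10.5 and H2-M10.6. The fold enrichment of these BURs in the map ranged from 2.86 at H2-M10.4 to 24.8 at H2-Q8. Over all genes the same 2 kb bin held a BUR for 12.3%. The bin was chosen after the profile was seen, and in the other 19 bins within 20 kb of the start between 0 and 7 class I genes had a BUR, so the values are given as a description. Of the class II genes, H2-DMa, H2-Aa and H2-Eb1 had a BUR in this bin. Next to the class I starts, none of the 30 genes had a BUR within 2 kb downstream (8.90% of all genes) and 1 had one within 2 kb upstream (3.33%, against 11.6%), counts that other bins of the profile also held. The sequences at H2-Q8 and H2-Q7 are near-copies, with 97.5% identity over 602 aligned columns. Only sites of the H2 windows with a BUR and peaks in both brain replicates were aligned. Next in alignment score were the sites 9.96 kb upstream of H2-M10.4 and 4.83 kb upstream of H2-M10.5, with 67.4% identity over 565 columns as reverse complements. This H2-M10.4 site is not the BUR of the 4 to 6 kb bin, which lay 5.88 kb upstream and was not aligned. The H2-K1 site aligned to H2-Q8 as its reverse complement with 55.5% identity over 620 columns (score 508). Its identity with the site downstream of H2-M10.6 was close, 53.5%, at a lower score (369).

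**Figure D1:**
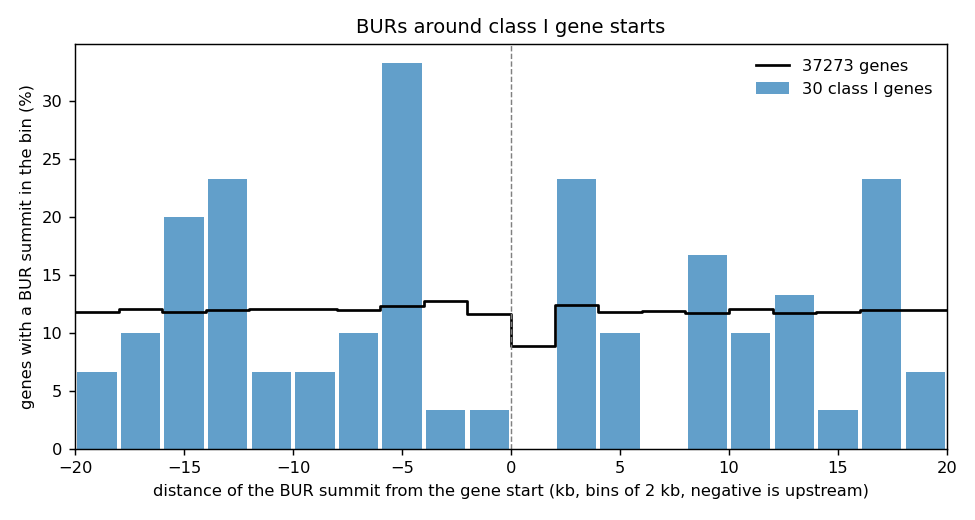
Percentage of genes (y axis) with a BUR summit in each 2 kb bin of distance from the gene start (x axis, kb, negative is upstream). Bars are the 30 class I genes and the line is all 37273 genes; the tallest bar, 33.3% against 12.3% for all genes, is the bin from 4 to 6 kb upstream.

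The urea SATB1 peaks at these sites were called in several tissues, and fold enrichment (the summit signal over the local background, as the peak caller reports it) is used as their height. Fold enrichment is not scaled between samples, so the values of different tissues are given side by side without a test. Upstream of H2-K1, at chr17:34141580-34142213, the BUR had a fold enrichment of 18.6. The urea SATB1 peak there had a fold enrichment of 13.2 and 31.9 in the thymocyte replicates, 22.3 and 11.6 in brain and 25.1 and 26.7 in skin. The skin replicates were close to each other, whereas those of thymocytes and brain differed by more than 1.5 times. The site is intergenic, 95.1% of its 50-base words occur once in the genome, and no standard SATB1 or CTCF peak overlapped it.

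Upstream of H2-Q8, between that gene and H2-Q4, lay the strongest BUR of the class I part, at chr17:35525689-35526255, with a fold enrichment of 24.8. Its urea SATB1 peak, at chr17:35525701-35526358, reached 9.65 and 29.7 in thymocytes, 26.4 and 18.1 in brain and 20.1 and 20.5 in skin. The near-copy upstream of H2-Q7, which encodes the Qa-2 antigen, had a BUR of 24.5 at chr17:35570601-35571174. It had no thymocyte peak in replicate 1, 25.1 in replicate 2, 22.4 and 12.2 in brain and 11.9 and 13.9 in skin. Both sites had peaks in brain and skin in both replicates. Only 50.6% and 53.1% of their 50-base words are unique in the genome. Because the authors kept unique matches alone, reads from the shared words are absent from these lists, and the part of this in the values was not tested.

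In the M family, whose M10 members are known from the vomeronasal organ, the H2-M9 site (chr17:36784212-36784774) had a BUR of 16.5, no thymocyte peak in replicate 1, 24.9 in replicate 2, 10.5 and 7.07 in brain and 5.45 and 7.78 in skin. The H2-M10.6 site, at chr17:36966058-36966741, had the highest mean fold enrichment over the replicates among the urea SATB1 peaks of the class I part in each tissue. The H2-K1 site, which lies just beyond the K end of that part, was higher in skin and in thymocyte replicate 2. In thymocyte replicate 2 and brain replicate 1, the H2-Q8 site and the site at chr17:35431485-35432249 were higher. The H2-M10.6 peak reached 29.0 and 28.6 in thymocytes, 24.2 and 25.1 in brain and 23.5 and 24.2 in skin, and its BUR had a fold enrichment of 11.2. Here the replicates lay close together in all 3 tissues, and every 50-base word of the site is unique. A pair of class I sites outside the H2 windows ranked next in thymocytes: chr17:35431485-35432249, 25.5 kb upstream of the first H2-Q2 entry, with a mean of 23.6 ± 8.05 (SD, n = 2), and chr17:36375947-36376538, 47.1 kb downstream of the H2-M10.2 start, with 22.7 ± 2.47 (SD, n = 2). Inside H2-Q4, an intron held a skin peak alone (chr17:35519465-35519698), of 6.71 and 6.96, with no BUR.

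In the class II part, the 3 sites with peaks in both replicates of a tissue differed from one another. The H2-Oa site (chr17:34238864-34239380, intergenic) lacked a BUR and had urea SATB1 peaks in all 3 tissues, with 12.1 and 14.8 in thymocytes, 4.03 and 6.63 in brain and 13.6 and 15.9 in skin. Standard SATB1 peaks of 10.1 and 5.84 and a skin CTCF peak of 11.0 also overlapped the H2-Oa site. That CTCF peak did not overlap the skin SATB1 peaks of the site, so the 2 proteins were not listed at the same place in skin. Peaks of 9 of the 11 lists met the H2-Oa site, which does not mean that their summits coincide. It was the 1 site of 35 urea SATB1 sites in the H2 windows with a standard SATB1 peak. The H2-Ob site (chr17:34379213-34379658) overlaps an exon of H2-Ob and had skin SATB1 peaks of 14.8 and 16.8 together with the strongest skin CTCF peak of the class II part, of 27.1. It had no BUR and no peak in thymocytes or brain. The H2-Aa site (chr17:34428803-34429455, intergenic) had a BUR of 9.08 and brain peaks of 9.35 and 12.4, and no peak in thymocytes or skin.

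**Figure D2:**
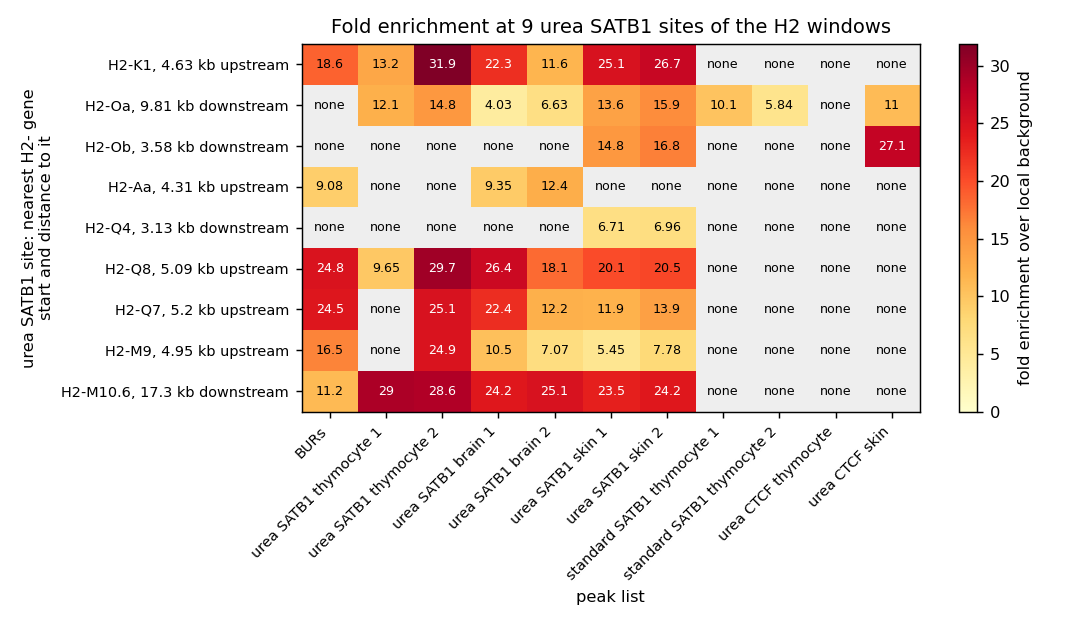
Fold enrichment (colour and number) of the peak of each of the 11 lists (columns) at 9 urea SATB1 sites of the H2 windows (rows, named by the nearest H2- gene start and the distance to it); "none" marks a list without a peak. The H2-K1, H2-Q8 and H2-M10.6 sites have peaks in all 6 urea SATB1 lists and no standard SATB1 or CTCF peak, and the H2-Ob site has skin SATB1 and skin CTCF peaks alone.

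Over all 35 urea SATB1 sites of the H2 windows, 21 had a peak in both brain replicates, 10 in both thymocyte replicates and 8 in both skin replicates. Of these, 4, at H2-K1, H2-Oa, H2-Q8 and H2-M10.6, had peaks in both replicates of all 3 tissues, and 7 had them in both brain replicates with none in thymocytes or skin. A BUR overlapped 20 of the 35 sites and a CTCF peak overlapped 4, and these shares were not taken over all urea SATB1 sites of the genome. Of the skin urea SATB1 peaks in the H2 windows, 1 of 10 and 1 of 8 overlapped a skin CTCF peak, against 12.8% and 12.1% over the genome. None of the 42 H2- gene starts had a urea SATB1 peak within 1 kb in both replicates of any tissue. The same share over all genes was not taken, so this count is not read as particular to the H2- genes. The urea SATB1 summit closest to an H2- gene start lay 3.06 kb away, inside H2-Q4 in skin replicate 1.

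The member genes were then counted by map. A gene was counted for a map when its body with 20 kb on each side held a peak, in both replicates where there are 2. A BUR was present for 40 of the 42 genes (95.2%), against 85.7% of all genes, and the 2 without were H2-DMb1 and H2-Q10. A urea SATB1 peak was present for 10 genes in thymocytes (23.8%, against 37.6% of all genes), 23 in brain (54.8%, against 57.2%) and 9 in skin (21.4%, against 16.2%). The thymocyte count rested on replicate 1, since 16 genes had a peak in replicate 2. A standard SATB1 peak was present for 31 genes (73.8%, against 52.9%), a thymocyte CTCF peak for 34 (81.0%, against 50.2%) and a skin CTCF peak for 33 (78.6%, against 60.6%). As long genes hold more peaks, the same shares were taken over the 12931 genes no shorter and no longer than the members. They were 79.3% for BURs, 26.5%, 43.0% and 10.4% for urea SATB1 in thymocytes, brain and skin, 59.6% for standard SATB1 and 57.4% and 67.3% for CTCF in thymocytes and skin. Thus, the urea SATB1 share in thymocytes (23.8%) was near that of genes of like length (26.5%), and in brain (54.8%) near that of all genes (57.2%). Neither is read as a trait of the members. In brain the members lay above genes of like length alone (54.8% against 43.0%). For BURs, urea SATB1 in skin, standard SATB1 and CTCF they lay above both backgrounds. The skin share comes from 9 genes, some of which share their peaks, so it is not read as a trait either. Shared windows leave far fewer than 42 independent observations.

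The 9 genes counted in skin were H2-K1, H2-Oa, H2-Ob, H2-Q4, H2-Q8, H2-Q6, H2-Q7, H2-M9 and H2-M10.6. Their peaks come from 8 sites, because H2-Q4 shares its 2 skin peaks with H2-Q8, and H2-Q6 shares its peak with H2-Q7. In thymocytes the 10 genes comprised 9 class I genes and, of class II, H2-Oa. In brain they comprised 19 class I genes, H2-Ke6 and the class II genes H2-Oa, H2-Aa and H2-Eb1.

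**Figure D3:**
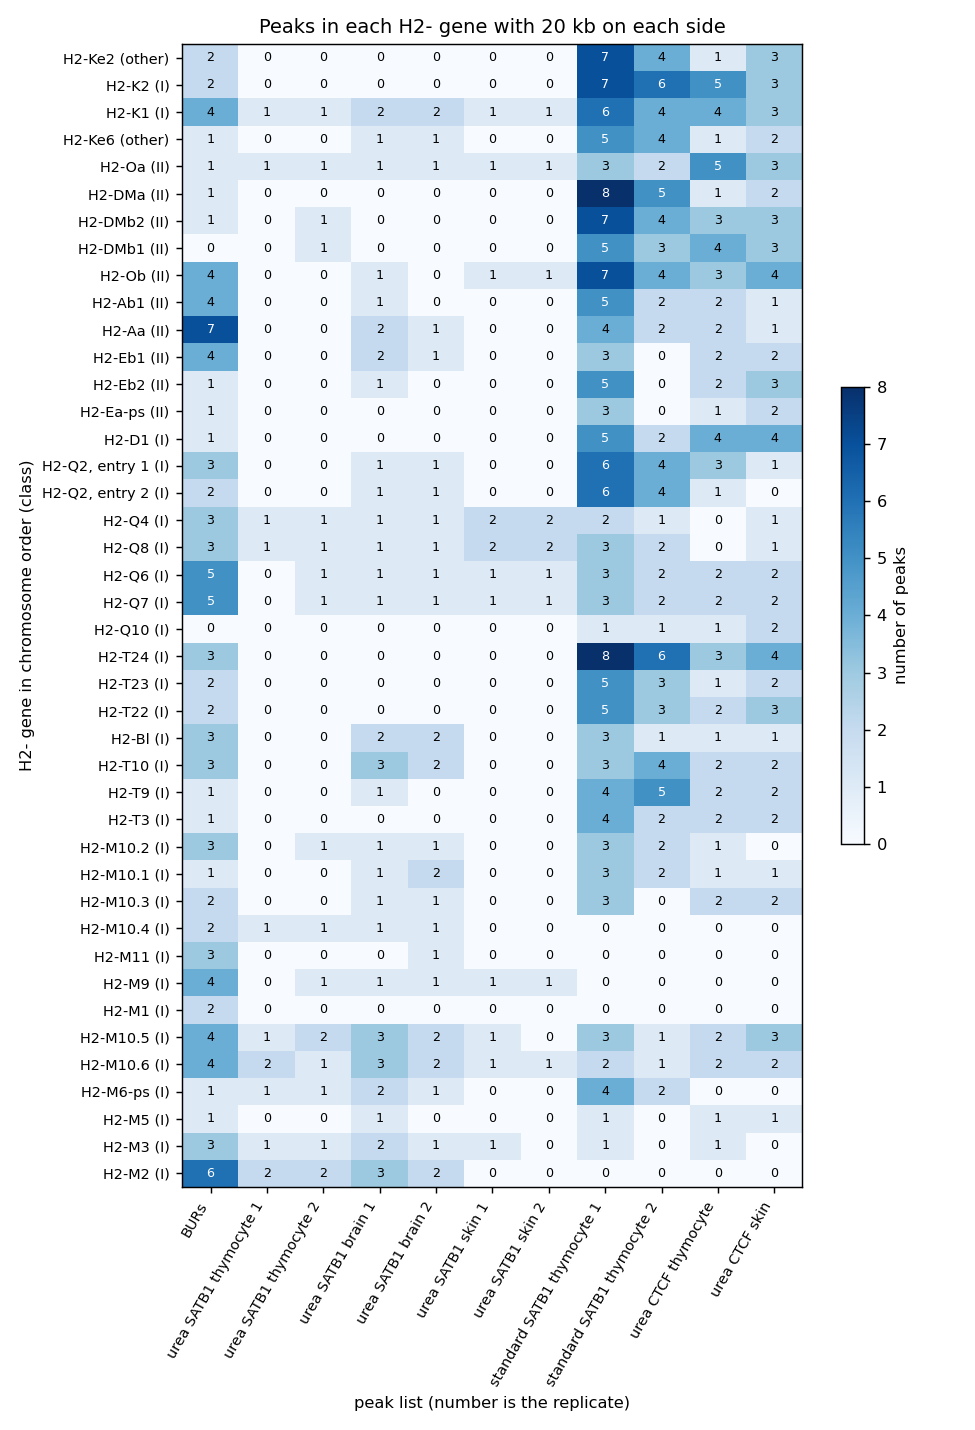
Number of peaks (colour and number) in each H2- gene with 20 kb on each side (rows, in chromosome order, with the class in brackets) for each of the 11 lists (columns). Urea SATB1 counts run from 0 to 3, standard SATB1 and CTCF counts from 0 to 8, and the rows H2-M10.4, H2-M11, H2-M9, H2-M1 and H2-M2 are 0 in the 4 right-hand columns.

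Gene by gene, the classical class I genes differed. H2-K1 had 4 BURs, 1 and 1 urea SATB1 peaks in thymocytes, 2 and 2 in brain and 1 and 1 in skin. It also had 6 and 4 standard SATB1 peaks and 4 and 3 CTCF peaks in thymocytes and skin. H2-D1 had 1 BUR and no urea SATB1 peak in any of the 6 lists, with 5 and 2 standard SATB1 peaks and 4 and 4 CTCF peaks. The strongest standard SATB1 peak between the class II part and H2-D1 lay 4.39 kb upstream of H2-D1, at chr17:35394856-35395496, with a mean fold enrichment of 13.1 ± 4.88 (SD, n = 2).

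H2-M2 had the most BURs of the class I genes, 6, with 2 and 2 urea SATB1 peaks in thymocytes, 3 and 2 in brain and none in skin. H2-Q6 and H2-Q7 followed with 5 BURs each, all of them shared. Besides H2-M2, the class I genes with the most thymocyte urea SATB1 peaks were H2-M10.5 (1 and 2) and H2-M10.6 (2 and 1). The T genes H2-T24, H2-T23, H2-T22, H2-T10, H2-T9 and H2-T3 and their neighbour H2-Bl all lacked a urea SATB1 peak in thymocytes and skin, although each had at least 1 BUR. H2-T24, H2-T23, which encodes the NK cell receptor ligand Qa-1, H2-T22 and H2-T3 also lacked one in brain, while they had 4 to 8 standard SATB1 peaks in replicate 1 and 2 to 6 in replicate 2. The M genes H2-M10.4, H2-M11, H2-M9, H2-M1 and H2-M2 showed the reverse, as none had a standard SATB1 or CTCF peak in its window. They held 2 to 6 BURs each, and every one but H2-M1 had at least 1 urea SATB1 peak. Between 75.0% and 89.0% of the 50-base words of their windows are unique. In the windows of the T genes and H2-Bl the range is 52.7% to 80.2%, and in those of the Q genes 28.7% to 85.9%. The part of this in the counts was not tested.

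Among the class II genes, BURs gathered around H2-Aa and H2-Ab1, the chains of the A molecule. H2-Aa had 7 BURs, H2-Ob, H2-Ab1 and H2-Eb1 had 4 each, and H2-Oa, H2-DMa, H2-DMb2, H2-Eb2 and H2-Ea-ps had 1 each. The strongest BUR of the class II part lay 7.51 kb upstream of H2-Ab1, at chr17:34392351-34392922, with a fold enrichment of 13.9, and no urea SATB1 peak overlapped it. Thymocyte urea SATB1 peaks were found in replicate 2 alone at H2-DMb2 and H2-DMb1, which share it, and in both replicates at H2-Oa. All 10 class II genes had standard SATB1 peaks in replicate 1, from 3 at H2-Oa, H2-Eb1 and H2-Ea-ps to 8 at H2-DMa. In replicate 2, H2-Eb1, H2-Eb2 and the pseudogene H2-Ea-ps had none. All 10 also had CTCF peaks in both tissues, from 1 to 5 in thymocytes and from 1 to 4 in skin.

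At the gene starts, standard SATB1 peaks of both replicates lay within 1 kb for 8 of the 42 genes (19.0%), against 26.4% of all genes. These were H2-Ke2, H2-DMa, H2-DMb2, H2-Q4, H2-T24, H2-T23, H2-T22 and H2-T10. Of the 36 protein-coding members 7 (19.4%) had one, against 38.2% of all protein-coding genes. The count rested on replicate 2, because replicate 1 alone gave 17 genes. H2-DMa had the highest values at its start, with a fold enrichment of 12.8 and 8.77 in the standard replicates, together with the strongest thymocyte CTCF peak of the class II part, of 25.2, and a skin CTCF peak of 16.9. At H2-T23 all 4 lists had a peak as well, of 6.45 and 5.03 for standard SATB1 and 7.28 and 5.75 for CTCF. At H2-K1, H2-D1 and H2-Ab1 a peak was listed within 1 kb in standard replicate 1 alone, of 3.74, 3.26 and 6.71. For H2-Ab1 the 1 kb limit set this, since the nearest summits lay 1.07 kb from the start in replicate 1 and 1.16 kb in replicate 2.

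Along the cluster, 4 parts were set by the outermost genes. The class II part runs from H2-Oa to H2-Ea-ps (chr17:34229285-34481589, 252 kb), the class III part from there to H2-D1 (chr17:34481590-35399674, 918 kb), and the class I part is made up of the K end (chr17:34111731-34137278) and the stretch from H2-D1 to H2-M2 (chr17:35399675-37620497), 2.25 Mb together. BUR density was 56.5 per Mb in the class I part, 39.6 in the class II part, 32.7 in the class III part and 87.5 over the genome. The class II part thus had 0.701 times the BUR density of the class I part, with an exact 95% interval of 0.328 to 1.33 for counting error alone, so no difference between them was detectable from 10 and 127 BURs. The content of A and T was 55.2% in the class I part, 52.5% in the class II part, 50.3% in the class III part and 58.2% over the genome. It thus moved in the same order as BUR density, and its part in that order was not tested.

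Urea SATB1 peaks were sparse along the class I part in thymocytes and brain. They numbered 22 and 27 in the thymocyte replicates, which is 0.692 times the density over the genome, and 56 and 50 in brain, which is 0.552 times. In skin they numbered 12 and 11, which is 1.26 times. In the class II part there were 1 and 2 in thymocytes, 4 and 2 in brain and 2 and 2 in skin, or 0.377, 0.278 and 1.95 times the density over the genome. Standard SATB1 peaks were dense in both, with 124 and 69 in the class I part (3.05 times) and 30 and 15 in the class II part (6.34 times). CTCF peaks numbered 62 in thymocytes and 70 in skin in the class I part (3.62 and 2.65 times) and 14 and 14 in the class II part (7.29 and 4.72 times). Between the parts, standard SATB1 was 2.04 ± 0.155 times (SD, n = 2) as dense in the class II part as in the class I part, while urea SATB1 was 0.532 ± 0.180 times as dense in thymocytes, 0.496 ± 0.198 in brain and 1.55 ± 0.0954 in skin (SD, n = 2). With 1 to 4 urea SATB1 peaks per list in the class II part, these ratios move by large steps with single peaks.

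**Figure D4:**
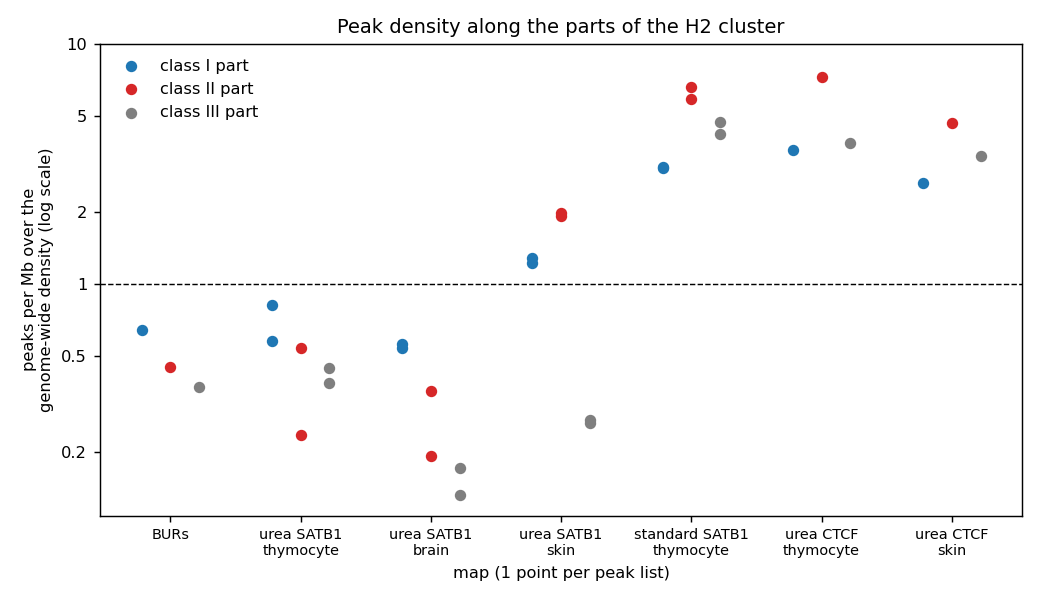
Peaks per Mb in the class I, class II and class III parts divided by the density of the same list over the genome (y axis, log scale), for 7 maps (x axis), with 1 point per peak list. Points for BURs and for urea SATB1 in thymocytes and brain lie below 1, and those for standard SATB1 and CTCF lie above 2 in all 3 parts.

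Within the class I part the families differed in the same lists. In the Q stretch, skin urea SATB1 was 4.78 times as dense as over the genome, from 3 and 3 peaks in 154 kb, of which 48.2% of the 50-base words are unique. In the T stretch it was absent from skin and thymocytes, with 3 and 2 brain peaks in 185 kb. In the M stretch, standard SATB1 was 1.21 times as dense as over the genome, compared with 5.00 times in the T stretch and 4.61 times in the Q stretch.

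To determine how many BURs of the H2 windows were bound, the percentage of the 71 BURs that overlapped a urea SATB1 peak by at least 1 bp was taken in each list. It was 8.45% and 12.7% in thymocytes (mean 10.6% ± 2.99), 28.2% and 19.7% in brain (23.9% ± 5.98) and 8.45% and 7.04% in skin (7.75% ± 0.996; SD, n = 2 for each). Brain lay above the other tissues in both replicates, and thymocytes and skin met at 8.45%. The difference between the 3 tissues did not pass an exact two-sided permutation test over the 6 samples (p = 0.133, Benjamini-Hochberg adjusted p = 0.200 over 3 tests), for which the smallest possible p is 0.0667. Bound in both replicates were 5 of the 71 BURs in thymocytes (7.04%, against 11.1% of all 238380 BURs), 14 in brain (19.7%, against 30.6%) and 5 in skin (7.04%, against 3.10%). Of the 71, 3 BURs were bound in both replicates of all 3 tissues. A further 2 were bound in brain and skin, 2 in thymocytes and brain and 7 in brain alone. The shares of all BURs in these combinations were not taken. No peak of any urea SATB1 list overlapped 51 of the 71, against 143980 of all 238380 BURs. The 20 BURs with a peak had a median fold enrichment of 7.96 in the BUR map and the other 51 of 7.34. Over all BURs these medians were 6.82 and 5.34.

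The brain lists are about 10 times as long as the skin lists, with 117963 and 109154 peaks against 11210 and 10846, and the length of a list moves with the percentage bound. When all urea SATB1 lists were held to the 10846 peaks of highest −log10 q, the values became 5.63% and 1.41% in brain, 2.82% and 7.04% in thymocytes and 8.45% and 7.04% in skin. The direction between brain and skin thus turned, from 16.2 percentage points higher in brain to 4.23 percentage points higher in skin (exact permutation p = 0.333 over the 3 tissues).

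All BURs bound in thymocytes or skin belonged to class I windows. In those, 57 BURs gave 13.2% ± 3.72 in thymocytes, 26.3% ± 4.96 in brain and 9.65% ± 1.24 in skin (SD, n = 2). In the class II windows, 0 of 12 BURs were bound in either replicate of thymocytes or skin, for which the exact 95% interval reaches up to 26.5% (counting error alone), and 3 and 1 were bound in the brain replicates. The 1 class II BUR bound in both brain replicates was that upstream of H2-Aa. At 12 BURs, the class II values in thymocytes and skin were not distinguishable from those of all BURs (13.4% ± 1.16 and 3.64% ± 0.0504; SD, n = 2).

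**Figure D5:**
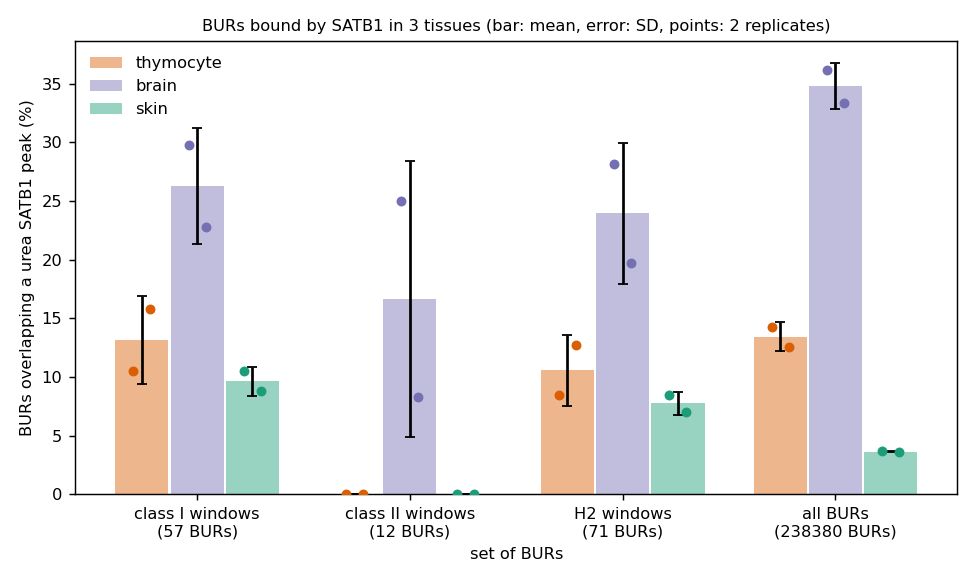
Percentage of BURs that overlap a urea SATB1 peak (y axis) in class I windows, class II windows, all H2 windows and the whole map (x axis, with the number of BURs), by tissue. Bars are means, error bars SD and points the 2 replicates; in the class II windows thymocytes and skin are at 0.

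The number of urea SATB1 peaks in the H2 windows was 11 and 15 in thymocytes (13.0 ± 2.83), 30 and 23 in brain (26.5 ± 4.95) and 10 and 8 in skin (9.00 ± 1.41; SD, n = 2). The tissues did not overlap, and the exact two-sided permutation test gave p = 0.0667, the smallest value it can give (adjusted p = 0.200). With lists of equal size the numbers were 3 and 6 in thymocytes, 4 and 1 in brain and 9 and 8 in skin, so that brain went from 17.5 peaks above skin to 6.00 fewer than skin (exact permutation p = 0.133). In thymocytes, standard ChIP-seq listed 103 and 60 SATB1 peaks in the H2 windows (81.5 ± 30.4) and urea ChIP-seq 11 and 15 (13.0 ± 2.83). The groups did not overlap, and the exact two-sided permutation test gave p = 0.333, the smallest that 2 against 2 samples allow (adjusted p = 0.333). Over the genome, by comparison, standard lists hold 48175 and 27147 peaks and urea lists 45049 and 38882.

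The peaks of the 2 methods lay at different places. Of the thymocyte urea SATB1 peaks in the H2 windows, 1 of 11 and 1 of 15 overlapped a peak of each standard replicate, in every case the H2-Oa site, and over the genome 0.730% to 1.04% did. A BUR overlapped 54.5% and 60.0% of the thymocyte urea peaks of the windows (75.8% and 77.6% over the genome), 66.7% and 60.9% in brain (73.0% and 72.8%) and 60.0% and 62.5% in skin (78.4% and 79.4%). In all 6 lists the share was lower in the H2 windows, and these shares come from 8 to 30 peaks each. Of the standard SATB1 peaks, 2.91% and 5.00% overlapped a BUR (3.78% and 5.20% over the genome), whereas 35.0% and 35.0% overlapped a thymocyte CTCF peak (22.2% and 18.0% over the genome).

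CTCF peaks of the H2 windows were largely shared between the tissues. Of 51 thymocyte CTCF peaks, 42 (82.4%) overlapped a skin CTCF peak, against 83.5% over the genome. Of 51 skin CTCF peaks, 40 (78.4%) overlapped a thymocyte peak, against 53.5% over the genome. The core of the CTCF consensus, read as CC, any 3 bases, AG, any 2 bases and GGC, was searched on both strands in 300 bases around the summit. It was found at 37 of 51 peaks in each tissue (72.5%), against 57.1% of all thymocyte and 43.4% of all skin CTCF peaks. The strongest thymocyte CTCF peak of the class I part lay 66.4 kb upstream of H2-M3, at chr17:37340531-37340924, with a fold enrichment of 22.4. The strongest skin CTCF peak of the class I part, of 29.5 at chr17:36368068-36368711, lay 41.3 kb upstream of H2-T3 and coincided with its strongest standard SATB1 peak (23.2 ± 0.138; SD, n = 2), in DNA with 35.2% A or T. Urea SATB1 peaks also met this place, of 6.10 and 5.46 in thymocytes and 14.9 and 17.9 in skin. A thymocyte CTCF peak of 12.8 lay there too, without a BUR, and the place is outside the H2 windows. In the K end, the strongest standard SATB1 peak (11.8 ± 4.40; SD, n = 2) and the strongest CTCF peaks of thymocytes (12.0) and skin (8.45) lay together 8.31 kb downstream of the H2-K1 start, at chr17:34128775-34129237. The strongest standard SATB1 peak of the class II part (14.0 ± 1.76; SD, n = 2) was intergenic, at chr17:34307791-34308429, 18.1 kb downstream of the H2-DMb1 start.

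Genes that serve antigen presentation without being H2- genes were read the same way, for a list of 25 symbols. A BUR was present for 15 of the 25 (against 85.7% of all genes), and a urea SATB1 peak for 8 in thymocytes (37.6%), 10 in brain (57.2%) and 2 in skin (16.2%). A standard SATB1 peak was present for 24 (52.9%), and a CTCF peak for 24 in thymocytes (50.2%) and 23 in skin (60.6%), where the brackets again give the share of all genes. The 2 in skin were Ciita, the transactivator of class II genes, and Ctss, the protease cathepsin S that trims the class II invariant chain. Both also had urea SATB1 peaks in both replicates of thymocytes and brain. The peptide transporter genes Tap1 and Tap2 and the immunoproteasome genes Psmb8 and Psmb9 lie inside the class II part. They had no BUR and no urea SATB1 peak in both replicates of any tissue, with 8 to 10 standard SATB1 peaks in replicate 1, 4 to 6 in replicate 2, and 4 or 5 CTCF peaks in each tissue. B2m, the light chain of class I molecules, had 2 BURs and urea SATB1 peaks in brain alone (2 and 3).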

How the data were processed

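The submitters' processing notes name Bowtie2 2.3.1, MACS2 2.2.7 and FastQC. The authors mapped reads to mm9, kept unique matches and called peaks in each sample at a q-value of 0.01, without pooling replicates. Each deposited list gives a display score made from the q-value, the fold enrichment (a ratio to the local background), −log10 p-values and −log10 q-values, and the summit offset. It holds no counts, so no depth could be computed here, although the study describes total aligned reads as similar across the urea ChIP-seq samples, and exact (Clopper-Pearson) intervals over peaks cover counting error only. Peaks overlap when they share 1 bp, and positions are 1-based. No chromosome 17 peak ended beyond that chromosome in NCBIM37, from which sequence was read. Unique 50-base words stand in for mappability, since the read length behind it was not taken from the files. Overlaps and tests were made in Python 3.11.15 (numpy 2.4.6, scipy 1.17.1, pysam 0.24.0, biotite 1.4.0), and the code was tested on simulated data. Tissues were compared by exact permutation over samples, without blocks. Named genes were all class II genes, H2-K1 and H2-D1, the 3 other class I genes with the most BURs, the 3 with the most thymocyte urea SATB1 peaks and those with a peak in both skin replicates; other named genes, and the named motifs and bins, were chosen after their values were seen. The members, lists and rules were chosen with earlier results of these data known. Thymocyte urea replicate numbers follow the sample labels; the study's own tables number them the other way round. Alternatives were other flanks, a −log10 q of at least 5, protein-coding genes only, other overlap rules, lists of equal size, replicate blocks and leaving out each replicate. The Satb1-/- samples, the inputs, the other thymocyte CTCF sample, Hi-C and 4C-seq are not used here.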

Additional observations from a re-analysis of the deposited data

How the results depend on the processing

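The difference between brain and skin turned in sign with urea SATB1 lists of equal size, from 16.2 to -4.23 percentage points for BURs bound and from 17.5 to -6.00 for the number of peaks; the alternative keeps fewer brain peaks by construction. Counts of genes with a peak moved with the flank. With 5 kb in place of 20 kb they were 19 (BURs), 4, 10 (urea SATB1 in thymocytes and brain), 20 (standard SATB1), 18 and 19 (CTCF in thymocytes and skin). With 50 kb they were 26, 37 and 22 for urea SATB1 in thymocytes, brain and skin. Gene starts with a standard SATB1 peak rose from 8 to 18 with 5 kb in place of 1 kb.

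Leaving out 1 replicate gave 10 to 16 genes for thymocyte urea SATB1, the higher value without replicate 1, and 8 to 17 gene starts for standard SATB1, the higher value without replicate 2. All other results kept their direction and their side of the threshold under the alternatives run, but a test that cannot go below 0.05 says little of stability. With the replicate block, the brain to skin difference of 16.2 percentage points gave an exact permutation p of 0.333, that of 17.5 peaks gave 0.167, and the 68.5 more standard than urea peaks gave 0.500. The replicate numbers do not pair the samples: over 2577 bins of 1 Mb, the differences between replicates 1 and 2 of any 2 tissues correlated between -0.038 and 0.0051. No depth could be computed from the lists, and each map has 1 or 2 of them, which limits every comparison.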

Other observations

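At the sites upstream of class I genes the thymocyte urea replicates often differed. Fold enrichment was 13.2 in replicate 1 and 31.9 in replicate 2 at H2-K1 and 9.65 and 29.7 at H2-Q8, and at H2-Q7 and H2-M9 replicate 1 had no peak while replicate 2 had 25.1 and 24.9. The site upstream of H2-M10.5 had 9.10 in replicate 2 alone, and that upstream of H2-M10.6 went the other way, with 6.61 in replicate 1 alone. At the site downstream of H2-M10.6 the same lists gave 29.0 and 28.6, and over all peaks their median fold enrichment was 7.62 and 7.80. The replicates differ in antibody amount (4 and 2 µl), and the part of this in the values was not tested.

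Between the class II and class I parts, the class III part, which holds complement and tumour necrosis factor genes, had the lowest BUR density of the 3 parts, 32.7 per Mb. It had 6 and 6 urea SATB1 peaks in thymocytes, 7 and 5 in brain and 1 and 1 in skin, and 70 and 44 standard SATB1 peaks. Its strongest thymocyte urea SATB1 site, chr17:34596290-34596866, overlapped an exon of BC051142 (14.4 ± 2.59; SD, n = 2). The site at chr17:34909383-34910163 in an intron of Tnxa was the 1 class III site with peaks in both replicates of all 3 tissues, with a mean of 9.97 ± 3.44 in thymocytes, 16.1 ± 2.98 in brain and 8.00 ± 0.546 in skin (SD, n = 2).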
